A study of Mus musculus with 9 samples.

Results

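The genes described here are 10 inhibitors of Wnt signalling: the secreted Frizzled-related proteins Sfrp1, Sfrp2, Sfrp4, Sfrp5 and Frzb, the Wnt inhibitory factor Wif1, the Dickkopf proteins Dkk1, Dkk2 and Dkk3, and the membrane protein Apcdd1. They were chosen by name, as 10 of 18193 genes named on the array, and are measured by all 23 probe sets, of 45101, that the array's annotation assigns to 1 of them alone. They were followed through 3 cell layers of the mouse growth plate, the cartilage in which long bones lengthen. The layers came from the upper end of the tibia (proximal) of wild-type Black Swiss mice on the day of birth (age 0 days), and were the round cell layer, the flat cell layer and the hypertrophic cell layer. Each layer was cut by hand from unfixed frozen sections, 18 to 20 tibiae of 1 litter were pooled per sample, and 3 litters of 9 to 10 pups gave 3 arrays per layer, 9 in all. No treatment, transgene or mutation was involved, sex is not given in the labels, and nothing in the dissection separates chondrocytes from other cells.

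Wnt proteins are secreted signals that bind Frizzled receptors and the Lrp5 and Lrp6 co-receptors and, in the canonical pathway, stabilise beta-catenin so that it switches on target genes with TCF and LEF factors. Secreted Frizzled-related proteins and Wif1 bind Wnt proteins outside the cell, whereas Dkk1 and Dkk2 bind Lrp5 and Lrp6. Apcdd1 sits in the membrane and binds Wnt and Lrp5. In growth cartilage Wnt signalling takes part in the orientation of flat columnar cells and in the passage of chondrocytes to hypertrophy.

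The 10 genes did not move as a group. Compared with the round layer, the flat layer had less Sfrp2, Dkk3 and Wif1 and more Sfrp4 and Apcdd1. Compared with the flat layer, the hypertrophic layer had less Sfrp1, Sfrp2 and Dkk2 and more Frzb, Wif1 and Dkk1. Between the hypertrophic and round layers, Sfrp1, Sfrp2, Dkk2 and Dkk3 were lower and Sfrp4, Frzb, Dkk1 and Apcdd1 were higher in the hypertrophic layer. Sfrp5 passed the test in no comparison.

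Each gene is represented by its brightest single-gene probe set, values are MAS5 signals, and differences are those of log2(signal + 26) between layers, with litter as a block in limma and p adjusted by the Benjamini-Hochberg method over 11313 genes. Intervals are at 95% and are not adjusted, n is 3 litters throughout, and rose, fell, higher and lower are used of a difference only where its adjusted p was under 0.05. All 10 genes lay above the expression filter (a mean above 7.21 on the log2 scale), Dkk1 with a mean below it in the round layer. In the flat layer against the round layer, 2 of the 10 genes were higher and 3 lower, beside 8.39% and 8.64% of all tested genes (17.0% in either direction). Hypertrophic against flat, 3 were higher and 3 lower, beside 6.12% and 5.22% (11.3% in either direction). Hypertrophic against round, 4 were higher and 4 lower, beside 12.4% and 12.7% (25.1% in either direction). The median difference of the 10 genes was 0.25, -0.29 and -0.49 in these comparisons, beside -0.01, 0.00 and 0.01 over all tested genes. In limma's F test over the 3 layers 9 of 10 passed, beside 28.4% of all tested genes. The values of the layers compared did not overlap for 6, 7 and 7 of the 10 genes, beside 25.3%, 22.7% and 36.5% of all tested genes. These genes were chosen with earlier results of the same arrays known, so the shares describe them and are no independent evidence.

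**Figure D1:**
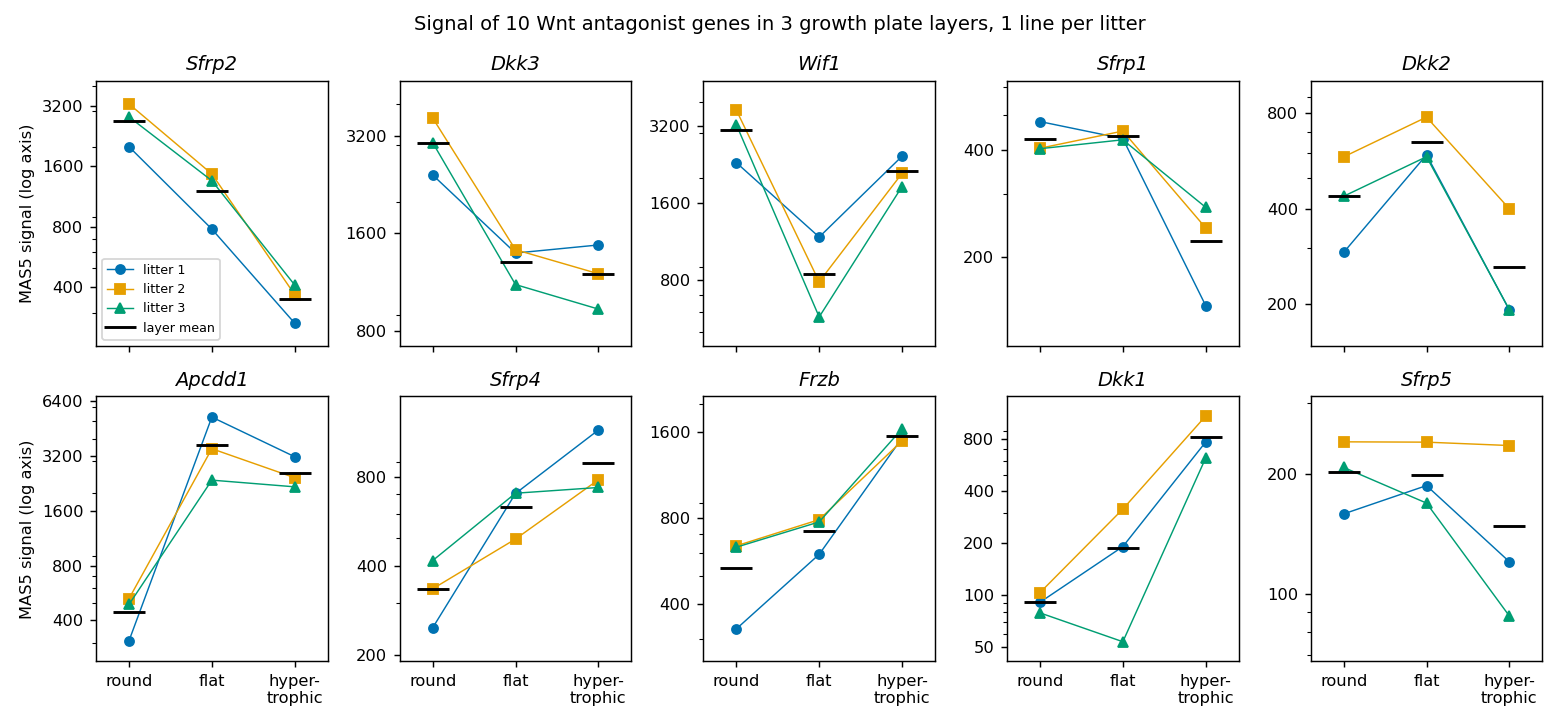
MAS5 signal on a log axis in the round, flat and hypertrophic layers, with 1 panel per gene, 1 line and symbol per litter and a black bar for the mean of the 3 arrays of a layer. Sfrp2 descends at each step in all 3 litters, Wif1 dips in the flat layer, Apcdd1 is lowest in the round layer, and Frzb and Dkk1 are highest in the hypertrophic layer.

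Stretches upstream of the gene start are shown for Sfrp2, Wif1 and Dkk1, which stand for 3 of the patterns: lower at each step, lowest in the flat layer, and highest in the hypertrophic layer. They come from RefSeq (build GRCm38.p6), and promoters of 6 of the 10 genes were used here (Sfrp2, Sfrp5, Frzb, Wif1, Dkk1 and Dkk2). They are the 250 bases before the start: chr3:83766071-83766320 (plus strand) for Sfrp2, chr10:121033754-121034003 (plus strand) for Wif1 and chr19:30549497-30549746 (minus strand) for Dkk1. Capitals mark matches, on either strand, to a TCF/LEF word (CTTTGAA or CTTTGAT or CTTTGTA or CTTTGTT) or to the RUNX word TGTGGT.
Sfrp2: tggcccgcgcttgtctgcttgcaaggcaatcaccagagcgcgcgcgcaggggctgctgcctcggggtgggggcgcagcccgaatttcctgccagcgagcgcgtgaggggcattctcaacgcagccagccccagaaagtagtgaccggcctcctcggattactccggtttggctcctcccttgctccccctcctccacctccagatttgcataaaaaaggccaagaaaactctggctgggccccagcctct
Wif1: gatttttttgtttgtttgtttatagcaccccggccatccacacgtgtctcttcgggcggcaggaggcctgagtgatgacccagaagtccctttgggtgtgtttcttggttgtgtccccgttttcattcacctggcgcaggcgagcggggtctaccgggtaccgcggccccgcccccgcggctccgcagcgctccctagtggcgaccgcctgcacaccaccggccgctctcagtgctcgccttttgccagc
Dkk1: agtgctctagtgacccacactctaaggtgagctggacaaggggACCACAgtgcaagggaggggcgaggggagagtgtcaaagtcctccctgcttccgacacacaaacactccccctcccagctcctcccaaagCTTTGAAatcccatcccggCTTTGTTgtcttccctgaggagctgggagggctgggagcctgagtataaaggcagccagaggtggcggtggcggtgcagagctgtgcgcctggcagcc
The Dkk1 stretch held 2 TCF/LEF words and 1 RUNX word, none of which overlapped. Among the other 5 genes no TCF/LEF word was found, and the RUNX word was found once, in Sfrp5. Of 32851 promoter stretches of the same length, 14.8% held a TCF/LEF word and 14.0% the RUNX word. The GC content of the 6 stretches was 55.6% to 64.4%, beside a median of 52.4% over all promoters. A match describes letters and is not a binding site.

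The layer labels were checked on genes taken to mark the round and hypertrophic layers. All 5 round layer genes, among them the joint lubricant gene Prg4, had lower signals in flat than in round samples. All 4 tested hypertrophic genes, among them the collagen gene Col10a1, were higher at both steps. The hypertrophic list held 6 genes, of which 5 were named on the array. Ihh lay below the filter and was not tested, at 79.6 in round, 81.05 in flat and 184.5 in hypertrophic samples. Barx1 of the round list, at 1928 in round, 80.3 in flat and 70.6 in hypertrophic samples, passed the filter through the round layer alone. It had to differ to be tested. These genes too were chosen with earlier results of the same arrays known, so the check is no independent evidence. Prg4 averaged 15340 in round, 384.5 in flat and 198.6 in hypertrophic samples, and the part of joint tissue in the round samples was not tested. Median array signals lay between 123 and 152. The round array of litter 1 stood apart in RNA integrity, with 3'/5' ratios of 4.25 for actin and 2.59 for Gapdh, against at most 2.06 and 1.28 on the other 8 arrays. The flat array of litter 3 had the highest summed muscle signal (598587, against at most 389116 on the others). Of 18 skeletal muscle markers, 17 were higher in the flat layer than in the round one, with summed signals of 373074 to 598587 in flat and 157975 to 256463 in round arrays. Hypertrophic samples had 16 of them lower than flat samples, with sums of 156649 to 369281 in hypertrophic arrays. Osteoblast markers were higher in 6 of 7 tested between flat and round, with sums of 86683 to 144999 in flat and 69862 to 92316 in round arrays, and reached 154411 to 182136 in hypertrophic arrays (5 of 7 higher than in flat). Myeloid and osteoclast markers were higher in 9 of 10 tested, with sums of 18434 to 25067 in flat and 10599 to 11968 in round arrays, and reached 52359 to 66199 in hypertrophic arrays (8 of 10 higher than in flat). Dcstamp, counted in both, averaged 29.0 in round, 101.6 in flat and 862.6 in hypertrophic samples. It passed the filter through the hypertrophic layer alone, so that layer had to differ for Dcstamp to be tested. Perichondrium, fibroblast and tendon markers were higher in 3 and lower in 5 of 18 between flat and round (sums 293014 to 423065 in flat, 346333 to 398045 in round arrays), and higher in 1 and lower in 6 between hypertrophic and flat (277421 to 312583 in hypertrophic arrays). Endothelial markers were higher in 1 and lower in 3 of 10 between flat and round (11239 to 12008 in flat, 12972 to 15051 in round arrays), and higher in 6 and lower in 1 between hypertrophic and flat (15802 to 17386 in hypertrophic arrays). Of 8 cartilage markers, 1 was higher and 4 lower between flat and round (sums 64275 to 95382 in flat, 89410 to 115637 in round arrays), 0 were higher and 3 lower between hypertrophic and flat (65361 to 73368 in hypertrophic arrays), and 0 were higher and 5 lower between hypertrophic and round. No marker of these lists averaged below the pseudocount in a layer except Ocstamp, a gene of osteoclast fusion, at 24.0 in the round layer. The part of these cells in the differences below was not tested beyond the muscle covariate reported further on. In dissected tissue fewer cells of a type and less RNA per cell cannot be told apart.

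Sfrp2 fell at both steps. The Sfrp2 protein binds Wnt proteins through a Frizzled-like cysteine-rich domain. Its signals in litters 1 to 3 were 2000.1, 3264 and 2814 in the round layer, 780.0, 1465 and 1357 in the flat layer, and 266, 369 and 412 in the hypertrophic layer. No array of a layer overlapped with another layer, and litter 1 was the lowest of its layer in all 3. Sfrp2 was lower in the flat layer than in the round one by a log2 difference of -1.17 ± 0.14 (SE, adjusted p = 0.000169) and lower again in the hypertrophic than in the flat layer by -1.68 ± 0.14 (adjusted p = 3.11e-05). Between the hypertrophic and round layers it was 7.21-fold lower on this scale (-2.85 ± 0.14, adjusted p = 6.78e-08). Of all tested genes, 1.01% were lower at both steps, and Sfrp2 was the member among them. The tested genes outside the list whose log2 values followed Sfrp2 most closely over the 9 arrays were Kifap3 (Pearson's r = 0.985), Septin6 (0.984) and Nfia (0.983). Such r values describe 9 arrays in 3 layers and rest largely on the differences between layers.

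Sfrp1, a close relative of Sfrp2, fell at the hypertrophic step. Its signals were 481, 405 and 403 in the round layer, 430.5, 452 and 427 in the flat layer, and 146, 242 and 276 in the hypertrophic layer. The round and flat arrays overlapped, and all 3 hypertrophic arrays lay below them. The difference was -0.94 ± 0.23 between the hypertrophic and flat layers (adjusted p = 0.0186) and -0.92 ± 0.23 between the hypertrophic and round layers (adjusted p = 0.011). Between the flat and round layers it was 0.03 ± 0.23 (interval -0.47 to 0.52, adjusted p = 0.955). The hypertrophic minus flat difference was -0.87, -0.94, -0.67 and -1.03 (adjusted p = 0.1, 0.0645, 0.115 and 0.0505) without flat litter 1, flat litter 2, hypertrophic litter 1 and hypertrophic litter 2, each left out on its own. The hypertrophic minus round difference was -0.71 (adjusted p = 0.0563) without the round and -0.64 (0.0707) without the hypertrophic array of litter 1. It was -0.68 (0.0662) without the litter 1 round and litter 3 flat arrays together, and -0.62 (0.052) with the mean of its probe sets.

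Sfrp1 has 5 probe sets, 3 of them designed from the same sequence. In a limma fit of all 22518 probe sets above the filter, the hypertrophic minus flat difference was negative in all 5, between -1.13 and -0.50. It passed in the 2 brightest, at -0.94 ± 0.23 and -0.99 ± 0.25 (adjusted p = 0.0293 and 0.0336). The probe set whose name marks probes shared with other sequences had signals of 205, 74.0 and 135 in the round layer, 139, 294 and 163 in the flat layer, and 219, 119.5 and 72.5 in the hypertrophic layer, with no layer apart from the others. Itm2a (r = 0.971), Bex2 (0.965) and Fam53c (0.963) followed Sfrp1 most closely over the 9 arrays.

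Sfrp5, the third member of the same branch, is known as a marker of resting chondrocytes. Its signals were 158, 240.1 and 207 in the round layer, 187, 239.7 and 169 in the flat layer, and 120.2, 235 and 87.9 in the hypertrophic layer. The layers overlapped, and litter 2 was highest in each. Between flat and round the difference was -0.02 ± 0.29, between hypertrophic and flat -0.45 ± 0.29, and between hypertrophic and round -0.47 ± 0.29, with intervals of -0.64 to 0.60, -1.07 to 0.18 and -1.09 to 0.16 and adjusted p = 0.975, 0.385 and 0.265. These intervals allow a fall of about the size measured for Sfrp1. A second Sfrp5 probe set, below the filter and not tested, had 36.9, 22.4 and 24.3 in the round layer, 123, 206 and 72 in the flat layer, and 56.7, 129 and 119 in the hypertrophic layer. There the round arrays were lowest, so the probe sets of Sfrp5 differed in their pattern (r = -0.03 between them over the 9 arrays).

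Frzb and Sfrp4, the other branch of the family, were higher in the hypertrophic than in the round layer. Frzb, also called Sfrp3, is a Wnt-binding protein first isolated from cartilage. Its signals were 327, 638 and 631 in the round layer, 596, 788 and 774 in the flat layer, and 1521, 1487 and 1639 in the hypertrophic layer. All 3 hypertrophic arrays lay above every other array, and the round array of litter 1, the array with high 3'/5' ratios, was the lowest. Frzb rose in the hypertrophic layer by 1.09 ± 0.18 relative to the flat layer (adjusted p = 0.00232) and by 1.55 ± 0.18 relative to the round layer (adjusted p = 5.34e-05). The flat minus round difference was 0.47 ± 0.18 and missed the threshold (interval 0.07 to 0.86, adjusted p = 0.104). The second Frzb probe set, made from the same sequence, had the same order of layers, with 58.2, 237 and 196 in the round layer, 173, 360.0 and 357 in the flat layer, and 588, 720.4 and 639 in the hypertrophic layer. Npl (r = 0.981), the hypertrophic collagen gene Col10a1 (0.981) and Marcksl1 (0.98) followed Frzb most closely.

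Sfrp4, a secreted inhibitor also known for effects on phosphate handling and bone, had signals of 248, 335 and 418 in the round layer, 705, 494 and 706 in the flat layer, and 1155, 784 and 738 in the hypertrophic layer. No layer overlapped with another. It rose in the hypertrophic layer relative to the round layer by 1.35 ± 0.23 (adjusted p = 0.000929) and in the flat layer relative to the round layer by 0.89 ± 0.23 (adjusted p = 0.0185). The hypertrophic minus flat difference was 0.46 ± 0.23 (interval -0.03 to 0.96, adjusted p = 0.239). The flat minus round difference had adjusted p = 0.0674 without the round array of litter 1 (0.57), 0.0921 without the flat array of litter 1 (0.81), 0.0774 without the flat array of litter 3 (0.83), and 0.293 when the litter 1 round and litter 3 flat arrays were left out together (0.38). In that last fit the hypertrophic minus flat difference passed, at 0.61 (adjusted p = 0.0423). Nol11 (r = 0.962), Chn1 (0.957) and Mrpl20 (0.954) followed Sfrp4 most closely. Higher in the hypertrophic layer than in both others were Frzb and Dkk1, as were 4.19% of all tested genes, and lower there than in both others were Sfrp1, Sfrp2 and Dkk2, as were 2.78%.

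Wif1 was lower in the flat layer than in both others. It binds Wnt proteins through a domain of its own and is known from cartilage and bone. Its signals were 2307, 3701 and 3246 in the round layer, 1179.9, 789 and 575 in the flat layer, and 2443, 2093 and 1859 in the hypertrophic layer. All 3 flat arrays lay below every round and hypertrophic array, while the round and hypertrophic arrays overlapped. Wif1 was 3.64-fold lower in the flat layer than in the round one (-1.86 ± 0.23, adjusted p = 0.000148) and 2.56-fold higher in the hypertrophic than in the flat layer (1.35 ± 0.23, adjusted p = 0.0023). It was the member lower in the flat layer than in both others, as were 1.08% of all tested genes. The opposite pattern, higher in the flat layer than in both others, was found in 0 of the 10 genes by limma and in 1.90% of all tested genes. The hypertrophic minus round difference was -0.51 ± 0.23 (interval -1.0 to -0.02, adjusted p = 0.123), and passed at -0.89 (adjusted p = 0.00179) without the round array of litter 1. Both calls that involve the flat layer were lost with the mean of the muscle markers as a covariate, at -0.90 (flat minus round, adjusted p = 0.254) and 0.60 (hypertrophic minus flat, adjusted p = 0.413). Cd109 (r = 0.97), the growth factor gene Bmp2 (0.965) and Tiam2 (0.963) followed Wif1 most closely.

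Dkk1, the best known inhibitor of the canonical pathway, blocks Lrp5 and Lrp6. Its signals were 91.3, 104 and 79.2 in the round layer, 192, 316 and 54.0 in the flat layer, and 773, 1093 and 624 in the hypertrophic layer. All 3 hypertrophic arrays lay far above the others, and the flat array of litter 3 was the lowest of all 9. Dkk1 was 4.60-fold higher in the hypertrophic than in the flat layer (2.20 ± 0.32, adjusted p = 0.000935) and 7.13-fold higher than in the round layer (2.83 ± 0.32, adjusted p = 3.7e-05). Its round arrays lay below the filter, and the gene entered the test through the other layers. The flat minus round difference was 0.63 ± 0.32 (interval -0.06 to 1.32, adjusted p = 0.204), and 1.09 (adjusted p = 0.0188) without the flat array of litter 3. With the mean of the Dkk1 probe sets it was 0.87 (adjusted p = 0.0422). A second probe set below the filter, not tested, had 30.6, 33.2 and 22.4 in the round layer, 108, 114 and 60.3 in the flat layer, and 301, 431 and 234 in the hypertrophic layer, with no overlap between layers. Steap4 (r = 0.985), Npc2 (0.982) and Fam102a (0.98) followed Dkk1 most closely.

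Dkk2, which can also bind Lrp5 and Lrp6, had its lowest signals in the hypertrophic layer. They were 292, 584 and 438 in the round layer, 592, 779 and 584 in the flat layer, and 192, 400.4 and 192 in the hypertrophic layer. Litter 2 was highest in every layer, and the hypertrophic value of each litter lay below its round and flat values. Dkk2 was lower in the hypertrophic than in the flat layer by -1.30 ± 0.20 (adjusted p = 0.00144) and than in the round layer by -0.72 ± 0.20 (adjusted p = 0.0203). The difference from the round layer kept its direction but missed the threshold without the litter block (-0.72, adjusted p = 0.137) and without the round array of litter 2 (-0.72, 0.0711), the round array of litter 3 (-0.58, 0.106), the hypertrophic array of litter 1 (-0.71, 0.0658) or the hypertrophic array of litter 3 (-0.58, 0.115). The flat minus round difference was 0.59 ± 0.20, positive in 3 of 3 litters, with adjusted p = 0.066, and the layers touched without overlapping (584.3 for the lowest flat and 583.8 for the highest round array). Taf1b (r = 0.95), Usp46 (0.937) and 1810021B22Rik (0.933) followed Dkk2 most closely.

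Dkk3, a divergent member of the family that does not act on Lrp5 and Lrp6 in the same way, fell at the first step. Its signals were 2422, 3627 and 3045 in the round layer, 1392, 1426 and 1114 in the flat layer, and 1475, 1203 and 936 in the hypertrophic layer. All 3 round arrays lay above the rest, and the flat and hypertrophic arrays overlapped. Dkk3 was 2.27-fold lower in the flat layer than in the round one (-1.18 ± 0.17, adjusted p = 0.000555) and 2.49-fold lower in the hypertrophic than in the round layer (-1.32 ± 0.17, adjusted p = 0.000147). The hypertrophic minus flat difference was -0.13 ± 0.17 (interval -0.51 to 0.25, adjusted p = 0.704). A second probe set from the same sequence gave -1.31 ± 0.17 (flat minus round, adjusted p = 0.000373). Dkk3 and Sfrp2 were higher in the round layer than in both others, as were 6.05% of all tested genes. Dusp14 and Cd47 (r = 0.966 each) and Esyt2 (0.965) followed Dkk3 most closely.

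Apcdd1 had the largest difference of the 10 genes between the flat and round layers. Its signals were 309.8, 528 and 490.4 in the round layer, 5247, 3517 and 2363 in the flat layer, and 3179, 2437 and 2171 in the hypertrophic layer. All flat and hypertrophic arrays lay above every round array, and the flat and hypertrophic arrays overlapped. Apcdd1 was 7.75-fold higher in the flat layer than in the round one (2.95 ± 0.25, adjusted p = 1.23e-05), with log2 differences of 3.97, 2.68 and 2.21 in litters 1 to 3. This difference was 2.51 without the round array of litter 1, the array with high 3'/5' ratios, and 2.11 with the mean of its probe sets. Apcdd1 was 5.65-fold higher in the hypertrophic than in the round layer (2.50 ± 0.25, adjusted p = 1.67e-05). The hypertrophic minus flat difference was negative in all 3 litters, at -0.45 ± 0.25 (interval -1.01 to 0.10, adjusted p = 0.307). It passed without the round array of litter 1 (-0.45, adjusted p = 0.0435). Apcdd1 and Sfrp4 were lower in the round layer than in both others, as were 4.80% of all tested genes.

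Of the 6 Apcdd1 probe sets, 3 were made from the same sequence and 3, the representative among them, carry a name that marks probes shared with other sequences. In the 5 tested probe sets the flat minus round difference was between 2.04 and 2.95, and in the 2 of them without shared probes it was 2.31 ± 0.17 and 2.13 ± 0.26 (adjusted p = 7.72e-06 and 0.000249). The last probe set stayed at 45.6 or below on every array, against a pseudocount of 26, and was not tested. Tnfrsf19, a receptor gene of the tumour necrosis factor family (r = 0.981), Spon1 (0.976) and Runx3, a transcription factor of hypertrophic cartilage (0.975), followed Apcdd1 most closely.

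**Figure D2:**
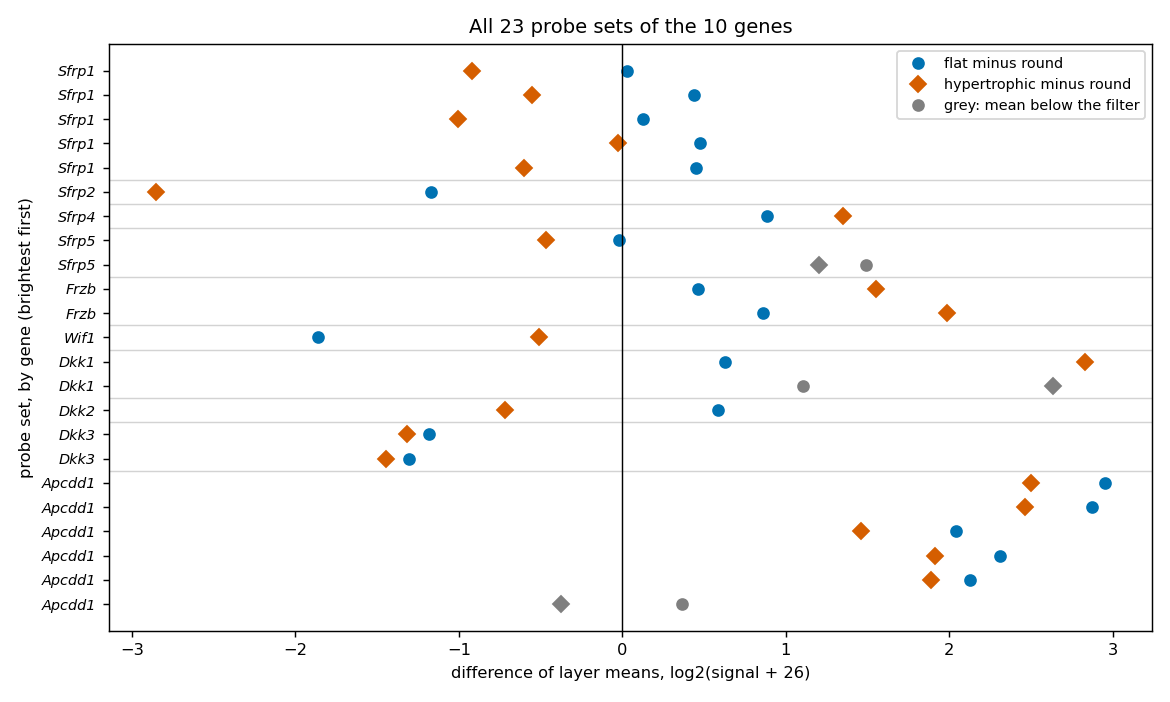
Difference of layer means of log2(signal + 26) for each of the 23 probe sets, grouped by gene, with flat minus round as circles and hypertrophic minus round as diamonds. Grey symbols are probe sets below the filter. The 5 tested Apcdd1 probe sets lie at 2.04 or more for flat minus round, the pairs of Frzb, Dkk1 and Dkk3 lie on the same side of 0, and the pair of Sfrp5 does not.

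Over probe sets, 20 of the 23 were tested. In the flat layer against the round layer 6 were higher and 4 lower, beside 12.5% of all tested probe sets in either direction. In the hypertrophic layer against the flat layer 4 were higher and 4 lower (7.47% in either direction), and against the round layer 9 were higher and 5 lower (20.4%). Probe sets of 1 gene share their target and are not independent.

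**Figure D3:**
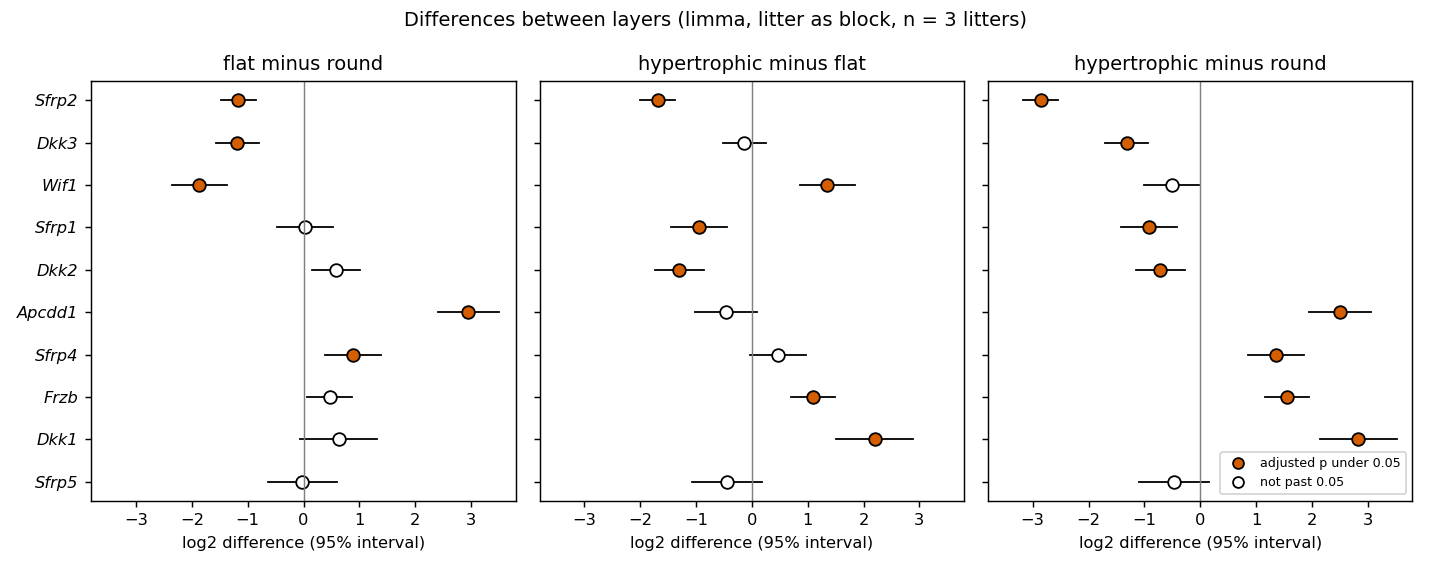
Log2 difference between layers for the 10 genes, with 95% intervals from limma, in 3 panels for the 3 comparisons. Filled points have an adjusted p under 0.05. Wif1 changes sides of 0 between the first and second panels, Sfrp2 lies below 0 in all 3, and Sfrp5 is open in all 3.

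Muscle signal moved with the flat layer, so the mean log2 value of the 18 muscle markers was also entered as a covariate. Since the score differs between layers, covariate and layer overlap in this fit, and over all genes 506 and 237 passed in the flat minus round and hypertrophic minus flat comparisons, in place of 1926 and 1283. All 8 calls between the hypertrophic and round layers held. Of the 5 calls between flat and round, 2 held, those of Apcdd1 (4.17, adjusted p = 0.00112) and Sfrp4 (1.98), while Sfrp2 stood at -1.13 (adjusted p = 0.0742), Wif1 at -0.90 (adjusted p = 0.254) and Dkk3 at -0.28 (adjusted p = 0.627). Frzb passed there in addition, at 1.31 (adjusted p = 0.0357). Of the 6 calls between hypertrophic and flat, 1 held, that of Sfrp2. Without it stood Dkk1 at 2.10 (adjusted p = 0.111), Dkk2 at -1.53 (0.064), Wif1 at 0.60 (0.413), Frzb at 0.43 (0.452) and Sfrp1 at -0.24 (0.804).

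The other genes of the pathway were taken from 5 lists, with 87 genes, 85 of them on the array and 65 tested. In the flat layer against the round layer 10 were higher and 9 lower, in the hypertrophic layer against the flat layer 5 were higher and 8 lower, and against the round layer 14 were higher and 15 lower. Over all tested genes the shares called in either direction were 17.0%, 11.3% and 25.1% in these comparisons, and the counts of each list below stand beside the same shares. Among 9 tested Wnt ligands, 3 were higher and 2 lower in the flat layer than in the round one (median 0.31). Wnt10a rose, with a mean signal of 338 ± 130 in the flat and 34.6 ± 33.2 in the round layer, so that it passed the filter through the flat and hypertrophic layers. Its round signal lies near the pseudocount, on which the size of its log2 difference (2.67 ± 0.34) therefore depends. Wnt5a, a ligand of the non-canonical pathway, rose by 1.33 ± 0.19 and Wnt7b by 1.06 ± 0.26. Between the hypertrophic and flat layers Wnt4 rose by 1.17 ± 0.22 and Wnt11 fell by 0.65 ± 0.19, the lists' 2 calls among ligands (median -0.33). In the hypertrophic layer against the round layer 2 were higher and 1 lower (median 0.36), with Wnt10a at 2.33 ± 0.34, Wnt5a at 1.25 ± 0.19 and Wnt9a at -1.11 ± 0.16.

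Of 16 tested receptors and co-receptors, 3 were higher and 2 lower in the flat layer than in the round one (median -0.11). The receptor genes Fzd8 and Fzd9 fell by 1.09 ± 0.22 and 0.97 ± 0.20, and Kremen1, a receptor for Dkk1 that helps to clear Lrp6 from the membrane, rose by 0.73 ± 0.16. Hypertrophic samples had 2 higher and 3 lower than flat samples (median -0.35), with the Wnt5a receptor Ror1 at -1.39 ± 0.21, Fzd5 at 0.86 ± 0.18 and Ryk at 0.61 ± 0.16. Against the round layer 3 were higher and 6 lower (median -0.06), with Ror1 at -1.97 ± 0.21, Fzd8 at -1.74 ± 0.22 and Fzd9 at -1.54 ± 0.20. Lrp5 and Lrp6, the targets of Dkk1, were picked for that role after their values were seen. Lrp6 was lower in the hypertrophic than in the round layer (-0.48 ± 0.13, adjusted p = 0.0199), and Lrp5 passed in no comparison (adjusted p = 0.412, 0.554 and 0.095).

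Of 18 tested signal transduction genes, 0 were higher and 1 lower at the first step (Tle1, a co-repressor, -0.55 ± 0.15), 0 and 1 at the second (Dvl1, an adaptor of the Frizzled receptors, -0.57 ± 0.14), and 2 higher and 3 lower between the hypertrophic and round layers, where Dvl1 (-0.84 ± 0.14), Tle2 (-0.75 ± 0.22) and Tle1 (-0.61 ± 0.15) had the largest differences. The list medians were -0.07, -0.04 and -0.09. Among 9 tested target and feedback genes 0 were higher and 1 lower in the flat layer than in the round one (Ccnd1, cyclin D1, -0.76 ± 0.13; median 0.26). Between the hypertrophic and flat layers 0 were higher and 1 lower (Nkd1, a feedback inhibitor, -1.17 ± 0.25; median -0.15). In the hypertrophic layer against the round layer 1 was higher and 2 lower (median -0.03), namely Notum, an enzyme that inactivates Wnt proteins (1.11 ± 0.23), Nkd1 (-0.80 ± 0.25) and Ccnd1 (-0.65 ± 0.13). Axin2, a widely used readout of canonical signalling named here after its values were seen, had differences of 0.53 ± 0.25, -0.37 ± 0.25 and 0.15 ± 0.25 (adjusted p = 0.174, 0.402 and 0.693).

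Of 13 tested secretion and modulator genes, 4 were higher and 3 lower in the flat layer than in the round one (median 0.29). Lgr6, a receptor for R-spondins, which amplify Wnt signals, was lower by -2.68 ± 0.22, the R-spondin gene Rspo3 was higher by 1.82 ± 0.23, and Shisa3, of a family that retains Frizzled receptors inside the cell, was higher by 1.68 ± 0.32. Shisa3 had mean signals of 75.2 ± 21.4 in the round layer, 294 ± 13.8 in the flat layer and 104 ± 33.9 in the hypertrophic layer (SD, n = 3 each), and passed the filter through the flat layer alone, so it had to differ to be tested. Between the hypertrophic and flat layers 2 were higher and 2 lower (median 0.13), with Lgr6 at 1.47 ± 0.22, Shisa3, with that limit, at -1.34 ± 0.32 and Shisa2 at -1.17 ± 0.17. In the hypertrophic layer against the round layer 6 were higher and 3 lower (median 0.46), with Shisa2 at -2.12 ± 0.17, Rspo3 at 1.73 ± 0.23 and Rspo2 at -1.68 ± 0.26. Adjusted p for the pathway genes named by rule lay between 2.87e-06 and 0.0453.

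**Figure D4:**
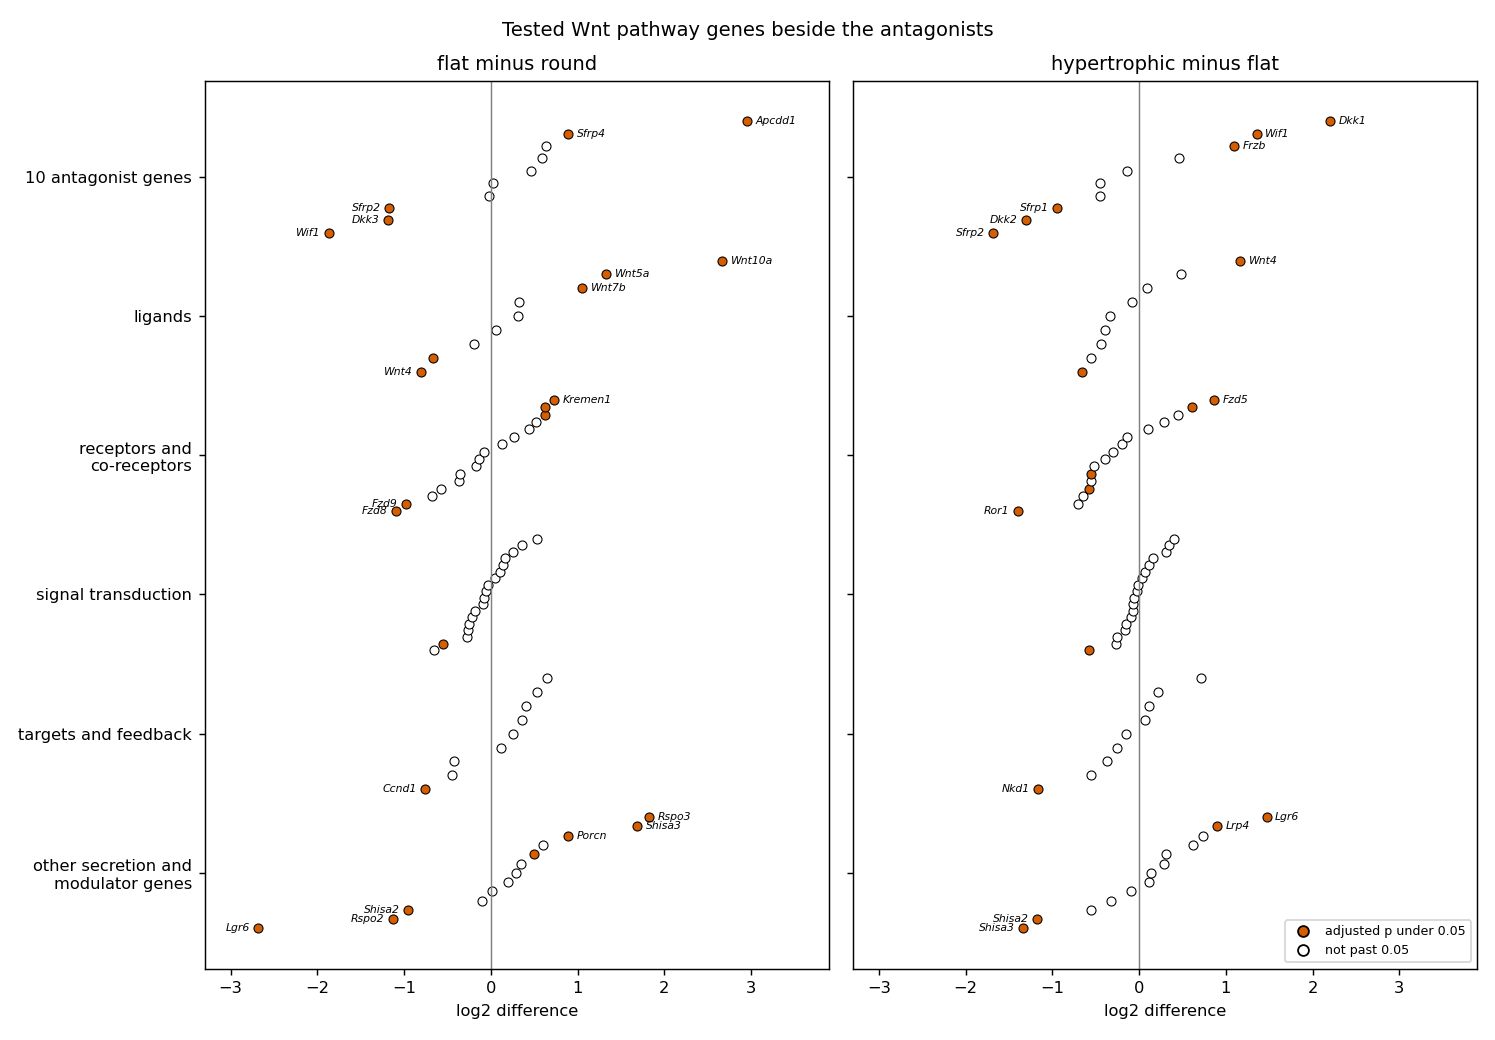
Log2 difference of each tested gene, flat minus round at left and hypertrophic minus flat at right, in 6 rows for the 10 antagonists and the 5 lists of other pathway genes, with filled points for an adjusted p under 0.05 and gene names where such a difference exceeds 0.7. Signal transduction genes lie between -0.66 and 0.54, while antagonists and modulator genes extend past 1 on both sides of 0 in both panels.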

How the data were processed

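Messenger RNA was measured on Affymetrix mouse arrays. The deposited intensity values are linear MAS5 signals. Per the submitters' processing notes the authors used Affymetrix Expression Console and MAS5 (releases not given in the sources used here). Each deposited array had a mean of 500.003 once 2% of values at either end were left out, so arrays were used as scaled. The number of arrays limits the precision.

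Signals were transformed as log2(signal + 26), where 26 is close to the 20th percentile of all values, so folds understate differences of dim genes. Of 45037 non-control probe sets, 34945 had 1 gene in the array annotation, 932 several and 9160 none, and 34741 were named through RefSeq gene identifiers, giving 18193 genes. Genes whose mean exceeded the median non-control probe set were tested in limma 3.58.1 (R 4.3.3), with layer terms, litter as a fixed block and a mean-variance trend. Every adjusted p is from limma, over all genes or all probe sets. Litter was inferred from the labels' replicate numbers, taking layers with the same number to come from the same litter. Deviations from the layer mean correlated at 0.167 to 0.517 in 9 pairs of the same litter, against -0.434 to 0.0815 in 18 pairs of different litters. Deviations within a layer sum to 0, so the lower values between different litters partly follow from the higher ones within a litter. The fit was tested on simulated data. Promoters were searched with Python 3.11.15 scripts.

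Members, lists and tests were chosen with earlier results of these data known. Every member was named, with up to 3 called genes per pathway list and comparison by size of difference, and the 3 tested genes most correlated with each member that passed the F test. The 19 alternatives covered pseudocount, filter, scaling, probe sets, variance trend, litter block, muscle covariate and arrays left out.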

Additional observations from a re-analysis of the deposited data

How the results depend on the processing

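Of the single-gene values under 19 alternatives, 524 kept direction and side of the threshold, 25 lost and 9 gained a call, and 9 changed sign. Sfrp5 was not among the tested genes with the mean of probe sets, so it has values under 18 alternatives. The calls of Apcdd1 (flat and hypertrophic against round), Sfrp2 (hypertrophic against both), and Dkk1, Dkk3, Frzb and Sfrp4 (hypertrophic against round) held under all 19. With muscle score as covariate the members lower in flat than in round numbered 0, and those higher and lower in hypertrophic than in flat 0 and 1. The sign changes, none in a called difference, were in Sfrp1 (flat minus round, -0.032 with median centring, -0.87 with the muscle score, and -0.089 to 0.23 with 1 array left out), Sfrp5 (flat minus round, 0.23 with the muscle score, -0.13 to 0.18 with 1 array left out) and Sfrp4 (hypertrophic minus flat, -0.39 with the muscle score); the cause was not tested. With 1 array left out, members higher in flat than in round numbered 1 to 2 (1 without round litter 1 or flat litter 1), and members lower in hypertrophic than in round 2 to 4 (2 without hypertrophic litter 1).

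Without the replicate block 5 of 5, 6 of 6 and 7 of 8 member calls remained, the lost one being Dkk2 between hypertrophic and round (adjusted p = 0.137), and over all genes limma called 935 (flat and round), 553 (hypertrophic and flat) and 1824 (hypertrophic and round), in place of 1926, 1283 and 2840. With 1 array left out these were 1225 to 1956, 591 to 1658 and 1770 to 2924. Median centring moved the higher share of calls to 39.7% and 65.2% at the first and second steps, in place of 49.3% and 53.9%. Signals near the pseudocount of 26 carry little information, as in the Apcdd1 probe set that was not tested.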
